A study of Mus musculus with 18 samples.

Results

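The mouse mitochondrial genome encodes 37 genes, and all 37 have an entry, with a symbol that begins with mt-, in the count tables of this caput epididymis study. They were taken by that rule from 53819 gene entries, and comprise 13 protein-coding genes, 2 ribosomal RNA (rRNA) genes and 22 transfer RNA (tRNA) genes. A low-count filter (edgeR's filterByExpr, minimum count 10) left 17 of them for testing, among 18618 genes in all: 12 protein-coding genes, both rRNA genes and the tRNA genes mt-Tl1, mt-Tm and mt-Tp. The other protein-coding gene, mt-Atp8, had 0 to 4 counts per library, and the other 19 tRNA genes had at most 11 counts in any library.

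Mitochondrial DNA is transcribed from both strands as long precursor RNAs, by a dedicated polymerase (Polrmt) with the factors Tfam and Tfb2m. The rRNA and most mRNA sequences in the precursors are separated by tRNA sequences, whose excision by nuclear-encoded enzymes frees the neighbouring transcripts, and their later abundance depends on their stability. The protein-coding genes specify subunits of respiratory complexes I, III and IV and of ATP synthase, which work together with nuclear-encoded subunits. The caput is the head of the epididymis, where sperm leaving the testis begin to mature, and its principal cells line the lumen and secrete proteins into it.

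The libraries were RNA from isolated caput of C57BL/6J mice, in 6 groups of 3. Control, 6% ethanol (EtOH) and 10% EtOH mice were sampled at 10 weeks, and the same 3 treatments were sampled after cessation of EtOH, which the series title puts at 1 month. The sources used here do not say how EtOH was given, for how long before cessation, or at what age mice were sampled. Nothing in the labels says that the 3 samples of a group came from separate litters, cages or days, so p-values reflect the variation among the samples as deposited, which may be technical. Totals ran from 10.7M to 17.2M assigned reads in the 9 libraries after cessation, and from 15.6M to 21.1M in the 9 libraries of 10 weeks. For 6% EtOH replicate 1 after cessation, the sample label and the count table carry different identifiers, and 10% EtOH replicate 3 of 10 weeks has an identifier of another form than the rest of its group. The secreted antioxidant enzyme Gpx5, a principal-cell product, took 1.97% to 4.73% of every library, and 8 of 9 principal-cell markers passed the filter. The exception, the protease inhibitor gene Spint4, had 7300 counts in 10% EtOH replicate 3 after cessation, 46 in 10% EtOH replicate 2 after cessation and 0 to 6 in the other 16 libraries.

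Several mitochondrial genes have near-identical copies in the nuclear genome, annotated as pseudogenes on chromosome 1, and the copies have count entries of their own. Sequences shown here are from the GENCODE M21 transcripts (GRCm38), an earlier build than the GRCm39 the authors used. The copies of mt-Co2 (Gm28661), mt-Atp6 (Gm10925), mt-Co3 (Gm28437) and mt-Nd4l (Gm10222) had 0 differences over their whole lengths of 681, 678, 783 and 294 bases. Gm28439 matched the first 876 of the 1378 bases of mt-Nd4 with 0 differences, and Gm29216 matched the last 492 of the 1545 bases of mt-Co1 with 6 differences. Gm28438 differed from mt-Nd3 at a single base of 345. Less similar copies on chromosomes 2 and 4 covered mt-Co1 (Gm13340, 37 differences in 1545 bases), mt-Nd6 (Gm11408, 33 in 519) and nearly all of mt-Cytb (Gm11410, 81 in 1142). The starts of 2 such pairs show how little sequence there is to tell a transcript from its copy. The mt-Atp6 pair is identical over these 60 bases, and in the mt-Nd3 pair the capital marks the differing base, T3C (mt-Nd3 base first, position counted from 1 at the 5′ end).
mt-Atp6: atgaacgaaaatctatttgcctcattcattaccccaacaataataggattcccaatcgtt
Gm10925: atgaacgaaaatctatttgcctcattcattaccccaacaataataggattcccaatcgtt
mt-Nd3: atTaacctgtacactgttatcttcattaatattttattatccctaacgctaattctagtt
Gm28438: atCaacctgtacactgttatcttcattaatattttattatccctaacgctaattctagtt

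The 3 tRNA genes that could be tested are shown whole, with the anticodon in capitals. They carry proline (mt-Tp), leucine (mt-Tl1) and methionine (mt-Tm). The DNA letters are given, so T stands for U in the RNA.
mt-Tp: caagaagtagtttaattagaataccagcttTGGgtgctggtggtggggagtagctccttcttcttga
mt-Tl1: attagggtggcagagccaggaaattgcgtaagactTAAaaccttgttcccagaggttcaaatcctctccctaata
mt-Tm: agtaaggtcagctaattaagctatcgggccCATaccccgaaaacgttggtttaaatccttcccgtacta

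The measured abundance of the 12 tested protein-coding genes fell into separate ranges. Levels are compared between genes in CPM, a gene's counts scaled to the library total, per kilobase of transcript, as the median of 18 libraries. The highest was mt-Co1, the catalytic core of complex IV, at 3606, and next was mt-Cytb, the mitochondrial subunit of complex III, at 2799. Of the complex I subunits, mt-Nd1 stood at 2081, mt-Nd5 at 1477, mt-Nd4 at 781, mt-Nd6 at 683 and mt-Nd2 at 552. The other 5 tested genes stood far lower. The complex IV subunits mt-Co2 and mt-Co3 were at 13.6 and 7.50, the ATP synthase subunit mt-Atp6 at 5.06, and the complex I subunits mt-Nd3 and mt-Nd4l at 4.14 and 2.49.

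These 5 were also the genes in which 98.0% to 100% of all 50-base windows occur in an annotated transcript from outside the mitochondrial genome. The share was 62.2% for mt-Nd4, 51.1% for mt-Co1, 8.19% for mt-Nd2, 7.61% for mt-Nd5 and 0% for mt-Nd1, mt-Cytb and mt-Nd6. mt-Atp8, whose reading frame overlaps the start of mt-Atp6, had 0% shared windows and a median of 0.13 on the same scale. Over all libraries, Gm10925 had 1405 counts and mt-Atp6 1231, Gm28437 had 2081 and mt-Co3 2188, and Gm28661 had 2078 and mt-Co2 3102. Gm10222 had 232 counts and mt-Nd4l 300, and Gm28438 had 170 and mt-Nd3 440. Copy counts were thus 0.67 to 1.14 times those of the original in 4 of these pairs, and 0.386 times for Gm28438. The counts of Gm29216 and Gm28439 came to only 0.00101 and 0.00125 of those of mt-Co1 and mt-Nd4. How reads that match both places were handled is not given in the sources used here, so the levels of these 5 genes and of their copies are uncertain. The strand setting of the counting is also not given. Counts of mt-Nd6 and of the 8 tRNA genes on the same strand therefore cannot be separated from RNA of the opposite strand. mt-Tp is among these 8, so the limit holds for all its values below.

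**Figure D1:**
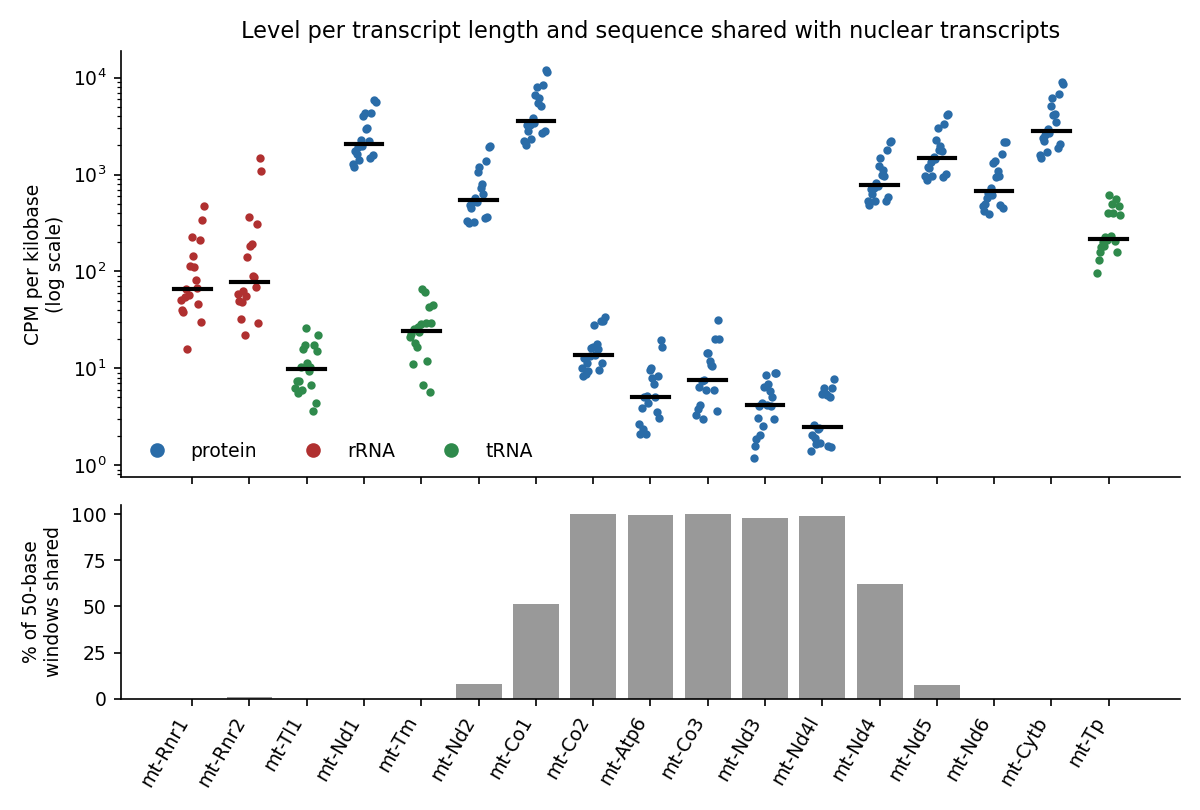
Top, CPM per kilobase of transcript (log scale) of the 17 tested mitochondrial genes in genome order, with 1 point per library (18 libraries) and a bar at the median; bottom, percent of each gene's 50-base windows found in an annotated non-mitochondrial transcript. The 5 protein-coding genes with medians of 13.6 or less are those with 98.0% to 100% of windows shared.

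The rRNAs, which form the mitochondrial ribosome, were low per length next to the abundant mRNAs. The large-subunit rRNA mt-Rnr2 had a median of 77.9 and the small-subunit rRNA mt-Rnr1 66.2 CPM per kilobase, and neither had more than 1.04% of its windows shared. Among the tRNAs, mt-Tp stood at 217, mt-Tm at 24.4 and mt-Tl1 at 9.78. mt-Tp held 71.2% to 90.6% of all tRNA counts, which numbered 177 to 777 per library. No read was counted for 4 tRNA genes (mt-Tf, mt-Td, mt-Tk and mt-Tg), and the other 15 untested tRNA genes had 2 to 63 counts summed over 18 libraries. A count of 0 allows up to 3 counts in a library, from counting error alone. The files do not tell whether these reads came from mature tRNA or from precursor RNA.

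Among the 7 abundant mRNAs, composition varied little beside the total. The 7 abundant genes made up 99.9% of mitochondrial mRNA counts in every library. mt-Co1 took 35.3% to 40.3% of them across the 18 libraries, with a coefficient of variation of 4.21%. mt-Cytb took 18.9% to 21.5%, mt-Nd5 14.9% to 18.4% and mt-Nd1 10.7% to 13.9%. The levels of the same genes, as TMM-normalised CPM (the scale of all CPM values from here on), spanned 6.16-fold for mt-Co1, 6.25-fold for mt-Cytb, 4.84-fold for mt-Nd5 and 5.09-fold for mt-Nd1. So the libraries differed more in how much mitochondrial mRNA was counted than in the proportions of these genes. The shares of the 7 abundant genes spanned at most 1.33-fold, while those of the 5 low-count genes spanned 1.83-fold for mt-Co2 to 3.04-fold for mt-Nd3. mt-Nd6, from the opposite strand, had 11.5 to 16.4 counts for every 100 of mt-Nd5.

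**Figure D2:**
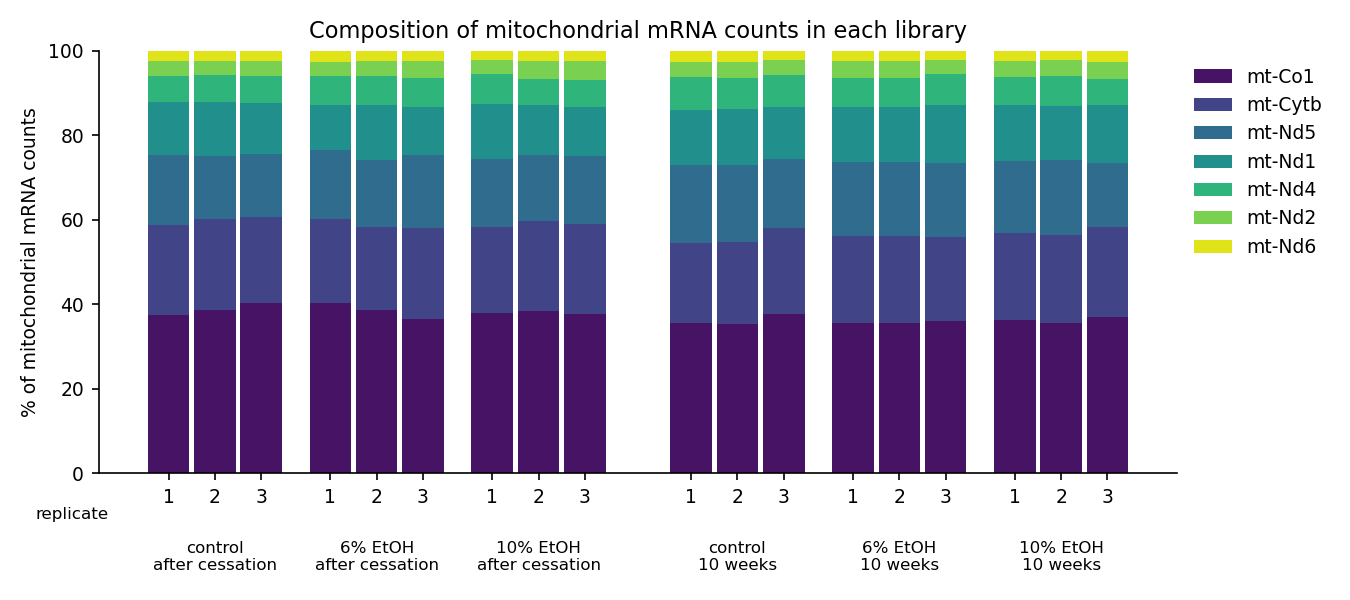
Percent of all mitochondrial mRNA counts held by the 7 abundant genes in each of the 18 libraries, stacked, with groups and replicate numbers below. mt-Co1 is between 35.3% and 40.3% in every library. Smaller shifts between groups occur. In 10-week controls mt-Nd4 holds 7.40% to 7.68%, against 6.10% to 6.43% in controls after cessation and 6.17% to 7.07% with 10% EtOH at 10 weeks. The 10-week controls overlap each of these groups for mt-Co1, mt-Nd5 and mt-Nd1.

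The share of all library counts that fell on the 37 genes ranged from 0.892% to 5.08%. At 10 weeks it averaged 1.07% ± 0.242 in controls, 1.23% ± 0.215 with 6% EtOH and 1.999% ± 0.737 with 10% EtOH (SD, n = 3 each). After cessation it averaged 2.66% ± 0.608 in controls, 2.25% ± 1.30 with 6% EtOH and 3.71% ± 2.21 with 10% EtOH (SD, n = 3 each). In bulk tissue, a larger share of mitochondria-rich cells and more mitochondrial RNA per cell cannot be told apart. Counting error was small beside these differences, with 95% Wilson intervals at most 0.0231 percentage points wide for a single library.

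**Figure D3:**
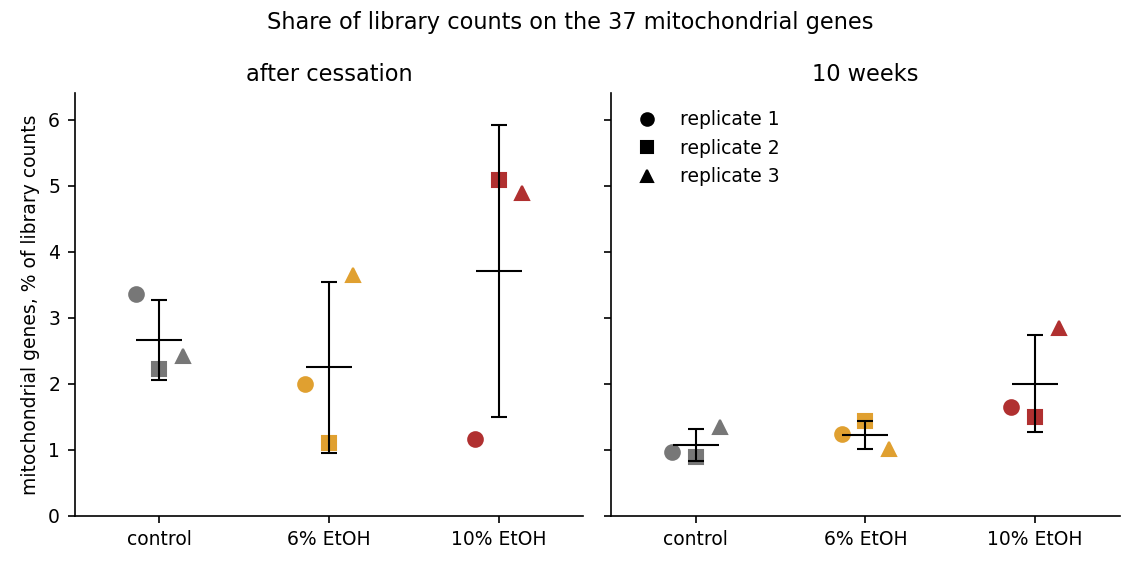
Percent of library counts on the 37 mitochondrial genes, by treatment, after cessation (left) and at 10 weeks (right); symbols are single libraries, horizontal bars group means and error bars SD (n = 3). At 10 weeks the 10% EtOH libraries lie between 1.502% and 2.85%, above the controls, and after cessation the 10% EtOH libraries run from 1.16% to 5.08%.

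At 10 weeks, 10% EtOH libraries held more mitochondrial counts than controls, though no single gene passed the test. The shares were 1.65%, 1.502% and 2.85% in 10% EtOH replicates 1 to 3, against 0.969%, 0.892% and 1.35% in controls. All 3 EtOH libraries lay above all 3 controls, and the ratio of means was 1.87. Replicate 3 of 10% EtOH was the highest, and without it the mean with 10% EtOH was 1.57%. Across all genes in edgeR's quasi-likelihood test, 0% passed at a Benjamini-Hochberg adjusted p of 0.05. Among the 17 mitochondrial genes 0 passed (edgeR, adjusted p from 0.299 to 0.698). DESeq2 and limma voom also called 0 of the 17, against 0.397% and 0% of all genes. At an unadjusted p under 0.05 there were 7 of the 17, against 13.4% of all genes.

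All 17 tested genes had positive log2 fold changes in this comparison, and for the 12 protein-coding genes the median was 1.05 (range 0.68 to 1.62), against -0.01 over all genes. The groups did not overlap for 16 of the 17, with 10% EtOH above control each time, and 15.2% of all genes did so. Members share precursor RNAs, and the abundant mRNAs varied together between libraries. Counts of members, here and in the other comparisons, are therefore not counts of independent results. The gene with overlapping groups was mt-Nd4l. The median was 0.64 without 10% EtOH replicate 3, and 0.42 when trends with transcript length and GC content were removed.

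The complex IV and complex III genes of highest level moved with the total. mt-Co1 stood at 6263, 5579 and 11237 CPM in 10% EtOH replicates 1 to 3, against 3391, 3154 and 4935 CPM in controls. Its log2 fold change was 1.01 ± 0.47 (SE; adjusted p = 0.360). mt-Cytb stood at 3557, 3250 and 6394 CPM with 10% EtOH, against 1800, 1736 and 2654 CPM in controls, a log2 fold change of 1.09 ± 0.50 (SE; adjusted p = 0.356). For both genes the lowest EtOH library was above the highest control, and replicate 3 of 10% EtOH stood well above the other EtOH libraries. The complex IV subunits mt-Co2 and mt-Co3 had log2 fold changes of 0.68 ± 0.41 and 1.17 ± 0.63, and mt-Atp6, part of the proton channel of ATP synthase, 1.27 ± 0.56 (SE).

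All 7 complex I genes had positive fold changes as well. mt-Nd1, a subunit of the membrane arm near the quinone site, stood at 2277, 2010 and 4202 CPM with 10% EtOH, against 1235, 1176 and 1632 CPM in controls, a log2 fold change of 1.07 ± 0.45 (SE; adjusted p = 0.326). mt-Nd5, a proton-pumping subunit, stood at 2928, 2801 and 4581 CPM with 10% EtOH, against 1753, 1628 and 2126 CPM in controls, with 0.90 ± 0.47 (SE; adjusted p = 0.409). The low-count gene mt-Nd3 had the largest change of the protein-coding genes, at 1.61, 0.94 and 2.42 CPM with 10% EtOH, against 0.41, 0.56 and 0.64 CPM in controls. Its log2 fold change was 1.62 ± 0.49 (SE; adjusted p = 0.299), from 8 to 49 counts per library in the whole study. The other 4, mt-Nd2, mt-Nd4, mt-Nd4l and mt-Nd6, lay between 0.78 and 1.05.

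The noncoding genes also had positive fold changes, with the widest errors for the rRNAs. mt-Rnr2 stood at 94.0, 238 and 629 CPM in 10% EtOH replicates 1 to 3, against 92.0, 78.9 and 49.8 CPM in controls, a log2 fold change of 2.12 ± 1.01 (SE; adjusted p = 0.376). mt-Rnr1 stood at 58.1, 117 and 237 CPM with 10% EtOH, against 48.6, 38.3 and 35.5 CPM in controls, with 1.75 ± 0.82 (SE; adjusted p = 0.374). In both, replicate 1 of 10% EtOH was close to the controls while replicates 2 and 3 were apart from them. mt-Tp stood at 15.9, 15.1 and 29.4 CPM with 10% EtOH, against 6.47, 8.95 and 10.4 CPM in controls, a log2 fold change of 1.23 ± 0.43 (SE; adjusted p = 0.299). mt-Tl1 and mt-Tm had 1.73 ± 0.59 and 0.64 ± 0.67 (SE).

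The chromosome 1 copies had the same direction in this comparison. Because of their near-identical sequence, reads counted on them may come from the mitochondrial genes, so this is not a separate observation. All 7 had positive log2 fold changes, with a median of 1.45 (smallest adjusted p = 0.302).

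With 6% EtOH at 10 weeks, mitochondrial shares of 1.24%, 1.43% and 1.004% were set against 0.969%, 0.892% and 1.35% in controls. The groups overlapped, and the ratio of means was 1.15. No mitochondrial gene passed (edgeR, 0 of 17, against 0% of all genes; smallest adjusted p = 1; DESeq2 and limma voom also 0). The median log2 fold change of the 12 protein-coding genes was 0.25, with 11 above 0, and over all genes it was -0.01. It was 0.10 without 6% EtOH replicate 2 and 0.46 without control replicate 3. At an unadjusted p under 0.05 there was only mt-Nd3 (1.05 ± 0.49), against 2.36% of all genes. EtOH and control libraries did not overlap for 2 of the 17 (mt-Nd3 and mt-Tp, both higher with EtOH), against 9.67% of all genes.

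Set directly against 6% EtOH at 10 weeks, 10% EtOH gave a median of 0.77 over the 12 protein-coding genes, all above 0, where all genes gave -0.01. The share in 10% EtOH libraries was 1.63 times that in 6% EtOH libraries. No gene passed (edgeR, 0 of 17, against 0% of all genes; smallest adjusted p = 0.994; DESeq2 and limma voom also 0). At an unadjusted p under 0.05 there was only mt-Tl1, against 2.83% of all genes. For 8 of the 17 the 10% EtOH libraries all lay above the 6% EtOH libraries, against 7.22% of all genes, and none lay below, against 6.39%. These 8 were mt-Co1, mt-Co2, mt-Cytb, mt-Nd1, mt-Nd4, mt-Nd5, mt-Tl1 and mt-Tp. The median was 0.37 without 10% EtOH replicate 3 and 0.27 with length and GC trends removed.

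After cessation, 10% EtOH libraries fell on both sides of the controls. Their shares were 1.16%, 5.08% and 4.89% for replicates 1 to 3, against 3.36%, 2.22% and 2.42% in controls. Replicate 1 was below every control, and replicates 2 and 3 were above every other library of the study, so the groups overlapped. The ratio of means was 1.39. None of the 17 genes passed (edgeR, against 0% of all genes; smallest adjusted p = 0.744; DESeq2 and limma voom also 0), and 1 of 17 was under an unadjusted p of 0.05, against 6.66% of all genes. The median over the 12 protein-coding genes was 0.52 (range -0.10 to 0.73, 11 above 0), against -0.02 over all genes. It was 0.94 without replicate 1 of 10% EtOH and 0.19 without replicate 2. No member had groups that did not overlap, against 2.49% of all genes with EtOH higher and 3.97% with EtOH lower.

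mt-Co1 shows the pattern of the mRNAs after cessation. It stood at 4445, 19430 and 17000 CPM in 10% EtOH replicates 1 to 3, against 12032, 8855 and 8224 CPM in controls. Its log2 fold change was 0.49 ± 0.46 (SE; adjusted p = 0.838). mt-Nd1 gave 0.42 ± 0.45, mt-Cytb 0.51 ± 0.49 and mt-Atp6 0.73 ± 0.53 (SE), with the same order of libraries. The tRNA gene mt-Tp did not follow, at 10.9, 33.6 and 24.4 CPM with 10% EtOH, against 39.8, 16.4 and 28.4 CPM in controls (log2 fold change -0.30 ± 0.42, SE).

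The rRNAs stood apart most in these libraries. mt-Rnr2 was at 47.1, 2474 and 1648 CPM in 10% EtOH replicates 1 to 3, against 283, 317 and 121 CPM in controls, a log2 fold change of 2.53 ± 1.02 (SE; adjusted p = 0.744). This was the member under an unadjusted p of 0.05. mt-Rnr1 was at 29.1, 344 and 435 CPM with 10% EtOH, against 133, 113 and 66.4 CPM in controls, with 1.37 ± 0.81 (SE; adjusted p = 0.781). Replicates 2 and 3 were again far above replicate 1 and the controls.

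The rRNAs also varied relative to mitochondrial mRNA. For every 1000 mitochondrial mRNA counts there were 4.03, 48.9 and 36.7 of mt-Rnr2 in 10% EtOH replicates 1 to 3 after cessation, against 8.81, 13.8 and 5.93 in the controls. At 10 weeks there were 5.45, 15.2 and 20.8 in 10% EtOH replicates 1 to 3, against 9.67, 8.83 and 3.81 in the controls. The rRNA genes together held 0.501% to 5.27% of all mitochondrial counts, highest in the same replicates 2 and 3 of 10% EtOH after cessation. mt-Rnr2 counts per mt-Rnr1 count were 1.62, 7.20 and 3.79 in 10% EtOH replicates after cessation, against 2.12, 2.81 and 1.82 in controls. Over the other 15 libraries, including these controls, that ratio lay between 1.404 and 2.81. Whether polyadenylated RNA was selected or rRNA depleted is not given in the sources used here.

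**Figure D4:**
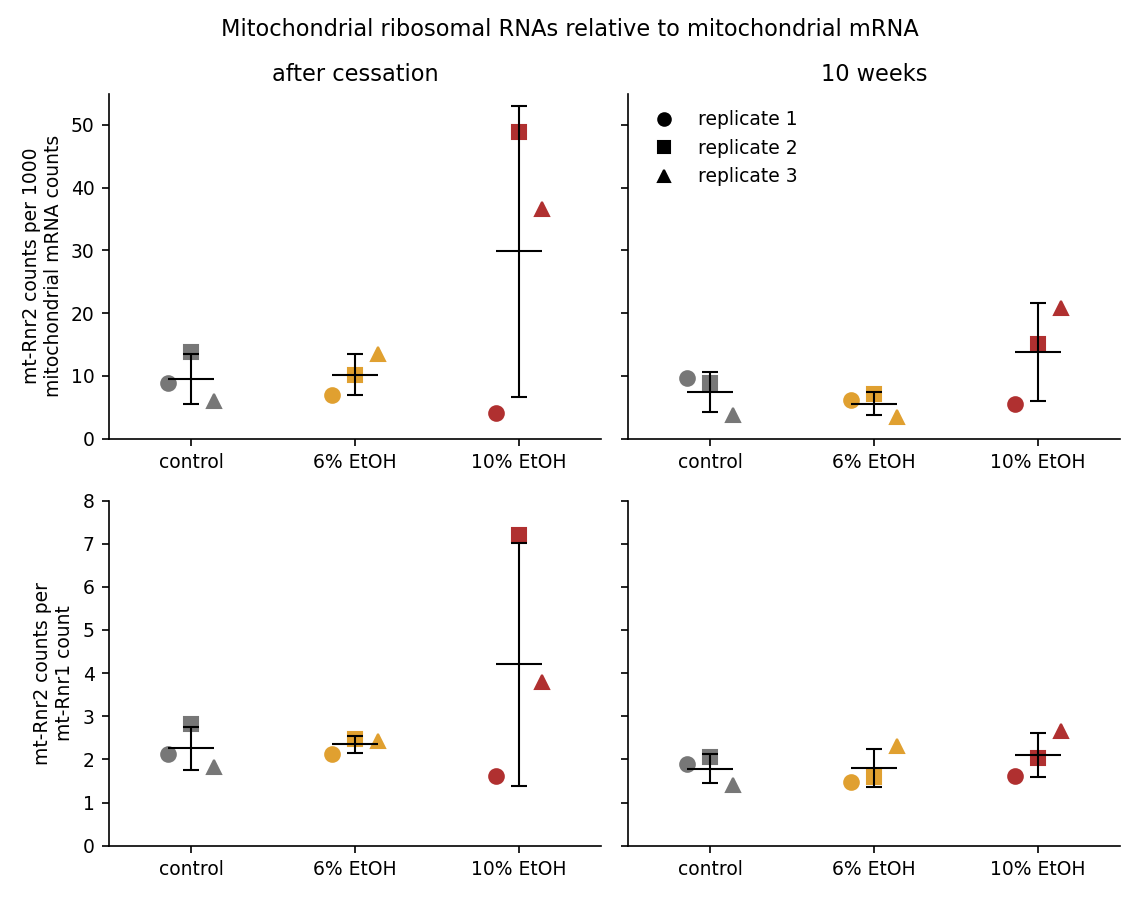
Top, mt-Rnr2 counts per 1000 mitochondrial mRNA counts, and bottom, mt-Rnr2 counts per mt-Rnr1 count, by treatment after cessation (left) and at 10 weeks (right); symbols are libraries, horizontal bars means and error bars SD (n = 3). Replicates 2 and 3 of 10% EtOH after cessation, at 48.9 and 36.7 in the upper plots, lie above all other libraries.

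With 6% EtOH after cessation, shares of 1.99%, 1.10% and 3.65% were set against 3.36%, 2.22% and 2.42% in controls. EtOH libraries stood both above and below the controls. The ratio of means was 0.844. No member passed or reached an unadjusted p under 0.05 (edgeR, 0 of 17, smallest adjusted p = 1), against 0% and 1.62% of all genes. DESeq2 and limma voom also called 0 of the 17, against 0.00537% and 0% of all genes. The median over the 12 protein-coding genes was -0.23, with 0 above 0, and over all genes it was -0.01. It ran from -0.87 to 0.11 as single libraries were left out, the lowest without 6% EtOH replicate 3 and the highest without 6% EtOH replicate 2. None of the 17 had groups that did not overlap, against 2% of all genes with EtOH higher and 2.01% with EtOH lower.

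Between the doses after cessation, 10% EtOH gave a median of 0.71 over 6% EtOH, with 12 of 12 protein-coding genes above 0 and -0.02 over all genes. The median was 0.39 without 10% EtOH replicate 2 and 1.35 without 6% EtOH replicate 3. No member passed (edgeR, 0 of 17, smallest adjusted p = 0.634), against 0% of all genes. DESeq2 and limma voom also called 0 of the 17, against 0.00537% and 0% of all genes. mt-Rnr2 (2.56 ± 1.02) and mt-Atp6 (1.33 ± 0.55) were under an unadjusted p of 0.05, against 7.85% of all genes. The shares of 1.16%, 5.08% and 4.89% with 10% EtOH and 1.99%, 1.10% and 3.65% with 6% EtOH overlapped, and so did all 17 genes; 3.16% of all genes lay wholly higher and 5.42% wholly lower with 10% EtOH.

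The effect of each dose was also compared between the times, as the difference of the EtOH-against-control log2 fold changes (after cessation minus 10 weeks). For 10% EtOH the median over the 12 protein-coding genes was -0.51, with 0 above 0, and over all genes it was -0.03. No member passed (edgeR, 0 of 17, smallest adjusted p = 0.645), against 0% of all genes. DESeq2 and limma voom also called 0 of the 17, against 0.0107% and 0% of all genes. mt-Tp (-1.52 ± 0.60) and mt-Nd3 (-1.45 ± 0.66) were under an unadjusted p of 0.05, against 7.44% of all genes. The median was -0.06 without 10% EtOH replicate 1 after cessation and -0.90 without its replicate 2. For 6% EtOH the median was -0.49 with 0 above 0, against 0.00 over all genes, and only mt-Nd3 (-1.47 ± 0.67) was under an unadjusted p of 0.05, against 3.01% of all genes. The median was -1.12 without 6% EtOH replicate 3 after cessation and -0.16 without its replicate 2. No gene passed there either (edgeR, 0 of 17, against 0% of all genes; smallest adjusted p = 1; DESeq2 and limma voom also 0). So a difference between the times in the response to EtOH was not detected with 3 libraries a group. These differences, the EtOH comparisons and the comparison of controls between the times share control libraries.

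Control libraries themselves held more mitochondrial counts after cessation than at 10 weeks. Their mitochondrial shares were 3.36%, 2.22% and 2.42% after cessation, against 0.969%, 0.892% and 1.35% at 10 weeks. No library of one set reached into the other, and the ratio of means was 2.49. The median log2 fold change of the 12 protein-coding genes, cessation over 10 weeks, was 1.29 (range 0.88 to 2.002), against 0.05 over all genes. All 17 tested genes were above 0. Sampling time, age and any library batch cannot be told apart between these control sets. Their totals were 12.9M to 17.2M assigned reads after cessation and 16.9M to 19.4M at 10 weeks.

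Of all genes, 0.118% passed in this comparison, all 22 higher after cessation, and 0 of the 17 mitochondrial genes did (edgeR, smallest adjusted p = 0.0868). At an unadjusted p under 0.05 there were 13 of 17, against 20.3% of all genes. limma voom called 0 of the 17, and DESeq2 called 2 (mt-Nd3 and mt-Tp), against 5.34% of all genes. The same 2 passed in edgeR without control replicate 2 after cessation (smallest adjusted p = 0.0118), where 14% of all genes passed. For 16 of the 17, all but mt-Tm, the cessation controls all lay above the 10-week controls, against 12% of all genes. The median was 0.73 with length and GC trends removed.

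mt-Co1 stood at 12032, 8855 and 8224 CPM in the cessation controls, against 3391, 3154 and 4935 CPM in the 10-week controls (log2 fold change 1.34 ± 0.47, SE; adjusted p = 0.146). mt-Nd3 stood at 2.91, 1.53 and 2.05 CPM after cessation, against 0.41, 0.56 and 0.64 CPM at 10 weeks (2.002 ± 0.49, SE; adjusted p = 0.0868). mt-Tp stood at 39.8, 16.4 and 28.4 CPM after cessation, against 6.47, 8.95 and 10.4 CPM at 10 weeks (1.71 ± 0.44, SE; adjusted p = 0.0959). The sets did not overlap for any of these genes. mt-Rnr2 and mt-Rnr1 had 1.71 ± 0.99 and 1.35 ± 0.82 (SE), and per 1000 mitochondrial mRNA counts mt-Rnr2 overlapped between the sets, at 5.93 to 13.8 after cessation and 3.81 to 9.67 at 10 weeks. All 7 chromosome 1 copies were above 0, with a median of 1.51 (edgeR, smallest adjusted p = 0.136), and again are not a separate observation.

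**Figure D5:**
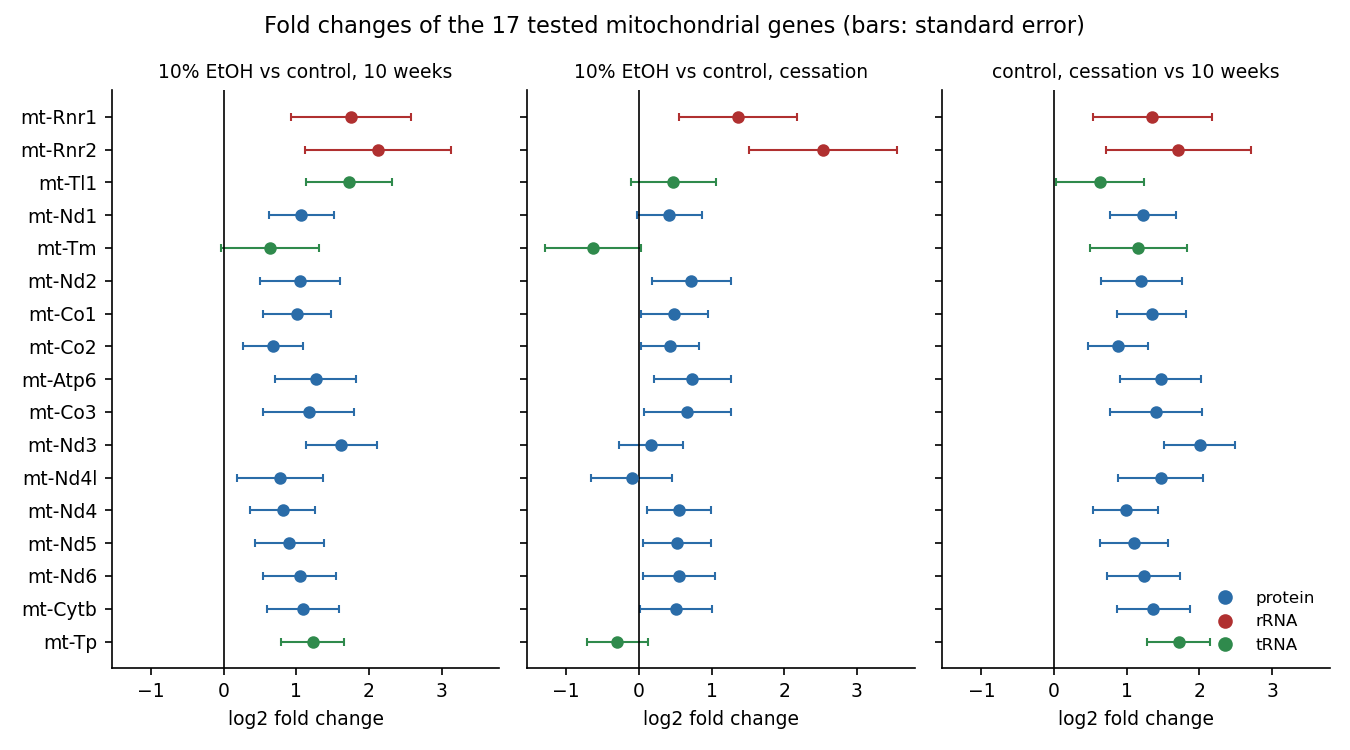
Log2 fold changes (points) with standard errors (bars) of the 17 tested mitochondrial genes in genome order, for 10% EtOH over control at 10 weeks, 10% EtOH over control after cessation, and controls after cessation over controls at 10 weeks. All 17 points lie above 0 in the left and right plots and 14 of 17 in the middle plot, and none passed at an adjusted p of 0.05.

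Nuclear genes that make, process and use mitochondrial RNA were examined as 9 lists with 119 tested members: mitochondrial transcription, RNA processing, DNA replication, biogenesis regulators, translation factors, and the nuclear subunits of complexes I, III and IV and ATP synthase. None of the 119 passed in any of the 9 comparisons (edgeR). Of all genes, 0.118% passed between the control sets and 0% in each of the other comparisons. With 10% EtOH at 10 weeks their median was 0.06, with 71 of 119 above 0 and 21 under an unadjusted p of 0.05, and 13.4% of all genes were under that p. Between the control sets it was -0.03, with 56 of 119 above 0 and 12 under an unadjusted p of 0.05, against 20.3% of all genes. Single members lay between -0.84 and 1.08 with 10% EtOH at 10 weeks and between -1.26 and 1.02 between the control sets.

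By role, the mitochondrial transcription list had a median of 0.23 with 10% EtOH at 10 weeks, 8 of 10 above 0, and 0.01 between the control sets, 5 of 10 above 0. Tfam, which packages mitochondrial DNA and starts transcription, had a log2 fold change of 0.36 ± 0.16 with 10% EtOH at 10 weeks (SE; adjusted p = 0.331). The elongation factor Tefm had 0.43 ± 0.22, the initiation factor Tfb2m 0.34 ± 0.21 and the polymerase Polrmt -0.18 ± 0.16 (SE). Lrpprc, which stabilises mitochondrial mRNAs, had 0.12 ± 0.14, and the coactivator Ppargc1a -0.27 ± 0.34 (SE). Slirp, the partner of Lrpprc, had 1 to 7 counts per library and was not tested. Nuclear subunits of complex I had a median of 0.16 (7 of 7 above 0), of complex III 0.12 (8 of 9), of complex IV 0.06 (6 of 11) and of ATP synthase 0.08 (9 of 15).

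After cessation, 10% EtOH gave these values for the same 6 genes: Tfam 0.18 ± 0.16, Tefm 0.27 ± 0.22, Tfb2m 0.13 ± 0.21, Polrmt -0.22 ± 0.16, Lrpprc 0.13 ± 0.14 and Ppargc1a -0.14 ± 0.34 (log2 fold change and SE). Between the control sets they were at 0.09 ± 0.16 for Tfam, -0.01 ± 0.22 for Tefm, 0.15 ± 0.21 for Tfb2m, -0.10 ± 0.16 for Polrmt, -0.13 ± 0.14 for Lrpprc and 0.22 ± 0.34 for Ppargc1a. None of them passed the test, against 0% of all genes for 10% EtOH after cessation and 0.118% between the control sets.

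Markers of cell types were also set side by side between the groups, and their part in the mitochondrial values was not tested. At 10 weeks, all 8 tested principal-cell markers were above 0 with 10% EtOH (median 0.66), with summed levels of 85606 to 106820 CPM in 10% EtOH libraries, against 64397 to 70655 CPM in controls. All 8 macrophage markers were above 0 too (median 0.41), at 238 to 367 CPM with 10% EtOH, against 184 to 212.1 CPM in controls. Replicate 3 of 10% EtOH, the library with the highest mitochondrial share at 10 weeks, also had the highest sum for both lists. It had 1331 counts of the macrophage gene Adgre1, against 180 to 254 in the other 8 libraries of 10 weeks. Fibroblast markers were above 0 for 6 of 6 (median 0.51; 866 to 988 CPM with 10% EtOH, against 610 to 752 CPM in controls), and immediate early genes for 0 of 9 (median -0.35). The medians of the other lists were 0.41 for endothelium, 0.35 for smooth muscle, 0.20 for adipocytes, 0.13 for late spermatids and sperm, -0.22 for clear and narrow cells, -0.27 for T and NK cells, -0.35 for ciliated cells, -0.41 for basal cells and -0.60 for red blood cells. None of these markers passed the test, against 0% of all genes.

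Between the control sets, immediate early genes, transcription factor genes that respond rapidly to stimuli, summed to 803 to 2061 CPM after cessation, against 574 to 643 CPM at 10 weeks. Of these, 8 of 9 were above 0 (median 1.83), and Atf3 and Junb passed, against 0.118% of all genes. Macrophage markers were above 0 for 8 of 8 (median 0.84; 224 to 521 CPM after cessation, against 184 to 212.1 CPM at 10 weeks). The 4 tested abundant non-polyadenylated or nuclear-retained RNAs were all above 0 (median 1.09), at 2949 to 3595 CPM after cessation, against 1798 to 2747 CPM at 10 weeks. Smooth muscle markers were above 0 for 6 of 7 (median 1.63; 1694 to 1752 CPM after cessation, against 1341 to 1690 CPM at 10 weeks) and endothelial markers for 6 of 6 (median 1.63; 31.5 to 244 CPM after cessation, against 23.4 to 53.2 CPM at 10 weeks). Principal-cell markers were spread around 0 (median -0.08, 3 of 8 above 0; 32194 to 81040 CPM after cessation, against 64397 to 70655 CPM at 10 weeks). Markers of T and NK cells (median 1.20) and of late spermatids and sperm (0.73) were above 0 for 6 of 6, as were those of basal cells (0.37), and those of red blood cells (1.17) for 5 of 5. Fibroblast markers were above 0 for 5 of 6 (0.66) and those of clear and narrow cells for 4 of 5 (0.42), while those of ciliated cells (0.12) and adipocytes (0.08) were above 0 for 3 of 6 each. The summed CPM of each of these 8 lists overlapped between the control sets, and no cell type marker passed the test. Among the 10% EtOH libraries after cessation, replicates 2 and 3 had 3539 and 5476 CPM of those abundant RNAs and replicate 1 had 1329 CPM, the same order as for mitochondrial share between replicate 1 and the others. Replicate 3 was also the library with 7300 counts of Spint4. At 10 weeks, sums of those abundant RNAs overlapped between 10% EtOH and control libraries (1138 to 3348 CPM, against 1798 to 2747 CPM). Their median log2 fold change in that comparison was -0.03, with 2 of 4 above 0.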

How the data were processed

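The authors deposited raw read counts per gene, in a separate table for each library. The submitters' processing notes name Trimmomatic, STAR, featureCounts and the build GRCm39 (mm39), with no versions. Neither the strand setting nor the treatment of multiply matching reads is given in the sources used here. Total RNA came from a Qiagen RNeasy mini kit, per the labels' protocols.

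Each of the 9 comparisons was tested with edgeR 4.0.16 (R 4.3.3; TMM, filterByExpr with minimum count 10 and minimum total 15, robust quasi-likelihood test, 1 term per group over 18 libraries) and adjusted over all 18618 genes by Benjamini-Hochberg at 0.05, two-sided. The common biological coefficient of variation was 25.4%. Standard errors (SE) were not fitted directly. Each is the absolute log2 fold change divided by the square root of the test's F statistic, so they are approximate. Shares were set beside each other without a test, since 3 against 3 cannot give an exact permutation p below 0.10. DESeq2 1.42.0 and limma 3.58.1 were alternatives. The edgeR script was tested on simulated counts. Replicates of a group differed by a chi-square per degree of freedom of 5.79 or more, so no pair agreed within sampling noise. Replicate numbers follow deposit order and pair no samples. Entries without a gene name numbered 0.

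Copies were found by aligning mitochondrial transcripts to GENCODE M21 transcripts (blastn 2.17.0) and by exact matches of 50-base windows. The comparison of mitochondrial RNA between genes used the lengths of those transcripts.

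All mt- genes were accounted for; protein-coding and rRNA genes were named, tRNA genes where tested or holding the most tRNA counts or with no read, and nuclear list genes where past the threshold, besides 7 named regulators. Members and lists were chosen with earlier results of these data known. Spint4 and Adgre1 were singled out after their values were seen.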

Additional observations from a re-analysis of the deposited data

How the results depend on the processing

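Of 376 counts, medians and share ratios under the alternatives, 355 stayed within the replicate spread (SD) or on their side of the threshold. Of the rest, 11 counts of called genes became larger and 10 values moved beyond the spread. Leaving out 1 of 3 libraries can hardly shift a median or share ratio by more than that spread. For those values, staying within it is no sign of stability, and the leave-one-out ranges give the size of the shifts. Single genes were followed only in 10% EtOH against control at 10 weeks and between the control sets. Of 497 such values, 443 kept direction and side, 53 passed the threshold and 1 reversed. Without the low-count filter, edgeR called 12 mitochondrial genes in 10% EtOH against control at 10 weeks, 3 in 10% against 6% EtOH at 10 weeks, 3 in 10% EtOH against control after cessation, 7 in 10% against 6% EtOH after cessation, 1 in the 10% EtOH effect between times and 14 between the control sets. That fit takes in 36360 genes, and in the same order 2.02%, 0.165%, 1.12%, 1.61%, 1.06% and 4.79% of all genes passed in it. With only the libraries of the time point, 4 mitochondrial genes passed in 10% EtOH against control at 10 weeks (mt-Tl1, mt-Nd4, mt-Nd5, mt-Tp; 6.17% of all genes), and voom with sample quality weights, added after seeing the data, called 3 there (7.41% of all genes) and 16 between the control sets (39.6%), where DESeq2 called 2 (5.34%). With those weights the medians were -0.94 for 6% EtOH after cessation and -1.25 for the 6% EtOH effect between times. With length and GC trends removed (97.2% of genes matched), medians were 0.42 and 0.27 for 10% EtOH against control and against 6% EtOH at 10 weeks, and 0.73 between the control sets; mt-Tl1 turned to -0.45 there (adjusted p = 0.562). The rRNA genes alone gave log2 ratios of mean share of 1.88, 1.90, 2.22 and 2.25 (10% EtOH against control and against 6% EtOH, at 10 weeks and then after cessation), against 0.90, 0.71, 0.48 and 0.72 for all members. The cause of these shifts was not tested.

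With single libraries left out, medians ran from 0.64 to 1.25 (10% EtOH at 10 weeks), 0.19 to 0.94 (10% EtOH after cessation), 1.09 to 1.48 (control sets) and -1.12 to -0.16 (6% EtOH effect between times); mitochondrial genes called ran from 0 to 2 between the control sets (2 without control replicate 2 after cessation, where 14% of all genes passed), and were 0 elsewhere. No paired analysis was possible because replicate numbers follow deposit order and the identifiers in the labels name no pairs between groups. At 0 to 4 counts mt-Atp8 could not be compared at this depth.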
